A study of Mus musculus with 18 samples.

Results

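Bile acids are made from cholesterol by hepatocytes, and 9 enzymes of this route were followed here in livers and liver tumors of Alb-R26Met mice. They were chosen by symbol: Cyp7a1, Hsd3b7, Cyp8b1, Akr1d1, Cyp27a1, Cyp7b1, Amacr, Slc27a5 and Baat. All 9 were among the 28442 genes of the deposited table. Alb-R26Met mice are a model of liver cancer in which Alb-Cre switches on an extra copy of Met, a chimera of mouse and human sequence at Rosa26. Their livers hold somewhat more of the receptor MET, and tumors arise as the mice age. Both groups were male mice of this genotype and neither was treated: 6 non-tumoral livers came from mice without tumors (52 to 71 weeks old), and 12 advanced tumors came from 11 mice (49 to 72 weeks old). Tumors 11 and 12 shared a mouse and all other samples came from separate mice, so that no tumor was compared with liver of its own mouse. Because the livers also carried the transgene, the comparison was between tumor and non-tumoral tissue of 1 genotype. Sample names also carried a tag whose meaning the labels do not give: E19 stood on 2 livers and 7 tumors, and E20 on the remaining 4 and 5.

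Synthesis of bile acids runs along 2 routes. In the classical route, Cyp7a1 sets the pace by adding a hydroxyl group to cholesterol, Hsd3b7 and Akr1d1 reshape the sterol rings, Cyp8b1 directs the product to cholic acid, and Cyp27a1 begins to shorten the side chain. In the alternative route, Cyp27a1 acts first and Cyp7b1 adds the hydroxyl group that Cyp7a1 adds in the other. Both routes end in peroxisomes, where Amacr flips a methyl group so that the side chain can be cut, while Slc27a5 activates bile acids with coenzyme A and Baat joins them to taurine or glycine. The finished acids repress Cyp7a1 and Cyp8b1 through the receptor Nr1h4 (FXR) and its target Nr0b2 (SHP), and they return to hepatocytes through the uptake carrier Slc10a1 (NTCP).

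Levels are given as scaled TPM. TPM is a relative abundance of transcripts corrected for their length, so that genes can be compared within a sample. The study calls the deposited whole numbers raw counts, but they were read here as rounded TPM, since they add up to less than a TPM total in every sample, far below the reads per sample that the labels state. They were then divided by a factor per sample. Were they counts, levels could not be compared between genes. Totals were 835144 to 884597 in livers and 845356 to 907513 in tumors, and the reads behind a value are not known. In tumor 2 the gene Siglece took 82.9% of the total, against 17.9% to 53.4% in the other samples, and 1 deposited unit there became 5.20 scaled TPM, so low values in tumor 2 are coarse. Liver 1 stood apart from the other livers: Slco1a1, a carrier higher in male liver, was at 0 against 37.4 to 105.02 scaled TPM, and Hmgcs1, of cholesterol synthesis, was at 236.8 against 17.8 to 26.3. Tumor 10 stood apart from the other tumors: Glul, which marks hepatocytes around the central vein, was at 5322 scaled TPM against 18.2 to 261, and Sds and Cyp2f2, which mark hepatocytes around the portal vein, were at 0.

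Among the 9 enzymes, 6 were lower in tumors than in livers and none was higher. These were Cyp7b1, Cyp27a1, Baat, Slc27a5, Akr1d1 and Hsd3b7. Cyp7a1, Cyp8b1 and Amacr did not pass the test. Each gene was tested with limma on log2(scaled TPM + 1) over 11452 genes, with Benjamini-Hochberg adjusted p-values under 0.05 counted, and log2 fold changes are tumors against livers on that scale with their standard error (SE). Of all genes tested, 8.74% were lower and 10.2% were higher in tumors, and the median log2 fold change was -0.05. The median over the 9 enzymes was -0.99. In bulk tissue, fewer cells of a type and less RNA per cell cannot be told apart. The plot of every sample shows these levels.

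**Figure D1:**
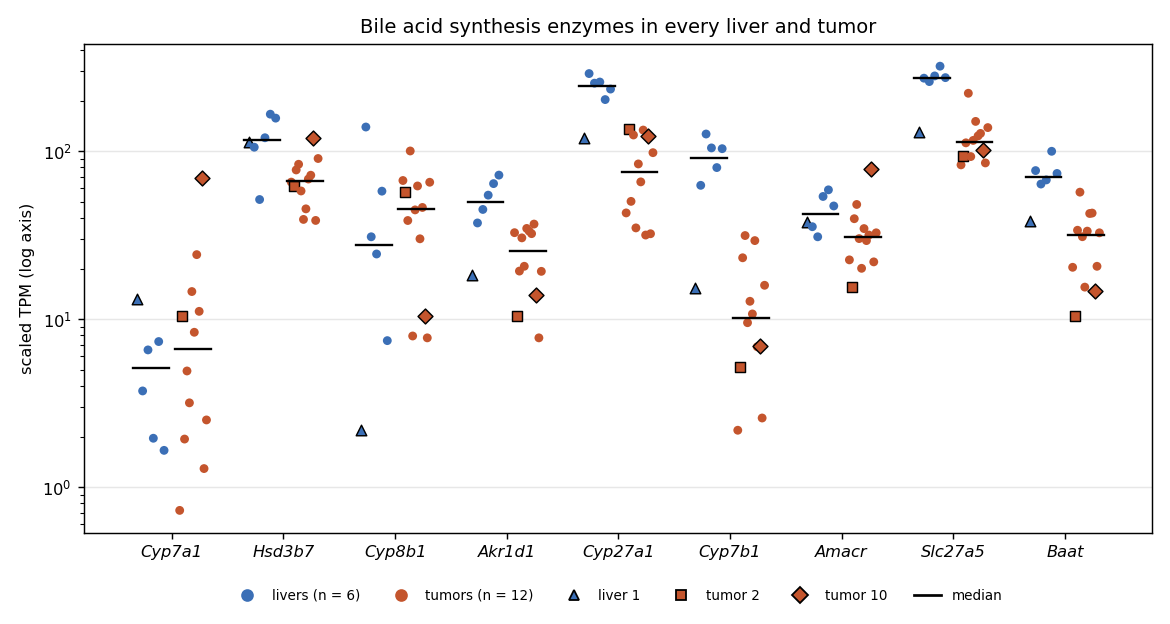
Scaled TPM (log axis) of the 9 enzymes in each of 6 livers (blue) and 12 tumors (orange), in the order of their steps, with black lines at the medians; liver 1, tumor 2 and tumor 10 have their own symbols. Cyp7b1 falls from a median of 91.7 in livers to 10.1 in tumors, while Cyp7a1 and Cyp8b1 are scattered in both groups.

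For 2 enzymes of the classical route, Hsd3b7, which was lower in tumors, and Cyp8b1, which did not pass the test, the 250 bases before the start site are shown, from RefSeq on GRCm38.p6. The difference between these 2 enzymes was not tested. Of the 9 enzymes, 4 were found in the RefSeq promoter table, Cyp8b1, Hsd3b7, Cyp27a1 and Akr1d1. In these 2 the start site was also the end of the annotated gene. Capitals mark matches to CAAAGTCCA, a form of the site of the hepatocyte factor Hnf4a, and to CAAGGNCA, that of Nr5a2 (LRH-1), searched on both strands. The Cyp8b1 window is chr9:121916306-121916555 on the minus strand, and the Hsd3b7 window is chr7:127800359-127800608 on the plus strand.
Cyp8b1: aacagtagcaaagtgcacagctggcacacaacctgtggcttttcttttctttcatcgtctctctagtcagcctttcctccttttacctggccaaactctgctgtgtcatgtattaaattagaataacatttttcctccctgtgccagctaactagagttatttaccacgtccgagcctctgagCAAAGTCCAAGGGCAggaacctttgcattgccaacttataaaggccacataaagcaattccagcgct
Hsd3b7: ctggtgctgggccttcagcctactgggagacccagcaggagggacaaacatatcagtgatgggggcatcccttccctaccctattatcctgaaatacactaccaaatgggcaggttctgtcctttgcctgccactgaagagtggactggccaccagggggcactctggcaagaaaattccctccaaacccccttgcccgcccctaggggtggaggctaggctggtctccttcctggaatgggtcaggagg
In Cyp8b1 the Hnf4a match covered bases 67 to 59 before the start and the Nr5a2 match bases 60 to 53, so that they shared 2 letters. A TATAAA match followed at bases 31 to 26. None of these motifs, nor GTTAAT, was matched in the Hsd3b7 window. Among 32851 windows of 250 bases, 0.384% held CAAAGTCCA, 5.53% held CAAGGNCA, 12.4% held TATAAA and 6.43% held GTTAAT. A match is a run of letters and says nothing about binding in these tissues. The factors themselves did not pass the test: Hnf4a had a log2 fold change of -0.08 (SE 0.17, adjusted p = 0.802), from a mean of 42.4 scaled TPM in livers to 39.7 in tumors, and Nr5a2 of -0.39 (SE 0.21, adjusted p = 0.206), from 29.5 to 22.8. The Hnf4a value turned above 0 with the tag as a covariate, in E20 samples alone and without liver 3.

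Cyp7a1 (chr4:6265612-6275632, GRCm38.p6), the rate-limiting enzyme of the classical route, was the least abundant of the 9 and the most scattered among tumors. In livers it was at 1.66 scaled TPM at the lowest, 5.15 at the median and 13.1 at the highest, the last in liver 1. In tumors it was at 0.727 at the lowest (tumor 1), 6.64 at the median and 69.3 at the highest (tumor 10). Tumor 8 followed at 24.2 and tumor 6 at 14.6, and these 3 tumors lay above every liver, while 2 tumors lay below every liver. Highest and lowest tumor were 95.3-fold apart, but the lowest rest on a deposited value of 1. Means were 5.73 ± 4.31 in livers (SD, n = 6) and 12.7 ± 19.1 in tumors (SD, n = 12). The log2 fold change was 0.42 (SE 0.62, adjusted p = 0.71), and without tumor 10 it was 0.13.

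Hsd3b7 (chr7:127800609-127803802), which acts on the sterol next, was modestly lower in tumors. Livers lay at 51.6, 117 and 166 scaled TPM (lowest, median and highest), and tumors at 38.7, 66.9 and 120.4. The lowest liver was liver 3, and 3 tumors lay below it, while 2 livers lay above every tumor. The highest tumor was again tumor 10. Its log2 fold change was -0.77 (SE 0.25, adjusted p = 0.0339), a 1.71-fold lower level. This call was lost when liver 1, 2, 4, 5 or 6 or tumor 5, 6, 7 or 11 was left out, with adjusted p-values of 0.0511 to 0.103 and log2 fold changes of -0.99 to -0.66 over all 18 fits that left out 1 sample.

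Cyp8b1 (chr9:121914356-121916305), which decides how much cholic acid is made, varied most among livers. It was at 2.19 scaled TPM in liver 1, 7.45 in liver 6, 24.4 in liver 4, 30.9 in liver 3, 57.8 in liver 5 and 139 in liver 2, a 63.7-fold range. Tumors lay at 7.74 at the lowest, 45.5 at the median and 100.3 at the highest. Liver 1 and liver 6 lay below every tumor and liver 2 above every tumor, so the tumors sat inside the range of the livers. Mean levels were 43.7 ± 50.8 (SD, n = 6) and 44.8 ± 28.0 (SD, n = 12). The log2 fold change was 0.58 (SE 0.66, adjusted p = 0.61), and without liver 1 it turned to -0.002. Within E19 samples the difference in mean log2 level was -0.51 and within E20 samples 1.47.

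Akr1d1 (chr6:37529978-37574921), the reductase of the ring double bond, was lower in tumors. Livers lay at 18.2, 49.9 and 72.1 scaled TPM (lowest, median and highest), and tumors at 7.74, 25.6 and 36.8. Of the livers, 5 lay above every tumor, and liver 1 lay inside the tumor range with 3 tumors below it. This gave a log2 fold change of -0.99 (SE 0.32, adjusted p = 0.0357), a 1.98-fold lower level. The call was lost without liver 2, 3, 4, 5 or 6 or tumor 3, 5 or 10, with adjusted p-values of 0.0502 to 0.106.

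Cyp27a1 (chr1:74713148-74737897), the mitochondrial hydroxylase that both routes use, fell in tumors. It was at 120.2, 244 and 290 scaled TPM in livers (lowest, median and highest), and at 31.7, 74.8 and 135.3 in tumors. Liver 1 was the lowest liver, the other 5 lay above every tumor, and 8 tumors lay below every liver. The mean was 227 ± 59.5 in livers (SD, n = 6) and 79.7 ± 41.8 in tumors (SD, n = 12). This gave a log2 fold change of -1.65 (SE 0.34, adjusted p = 0.00153), a 3.13-fold lower level. The adjusted p stayed at or under 0.00603 in the 18 fits that left out 1 sample.

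Cyp7b1 (chr3:18071944-18243890), the hydroxylase of the alternative route, had the lowest log2 fold change of the 9. Livers held 15.3 scaled TPM in liver 1, 62.7 in liver 2, 79.9 in liver 5, 103.5 in liver 6, 104.6 in liver 4 and 126.6 in liver 3. Tumors lay at 2.18 at the lowest (tumor 1), 10.1 at the median and 31.5 at the highest (tumor 4). All livers but liver 1 lay above every tumor, and 8 tumors lay below liver 1 too. Means were 82.1 ± 39.5 (SD, n = 6) and 13.1 ± 10.001 (SD, n = 12). The log2 fold change of -2.68 (SE 0.49, adjusted p = 0.000592) is a 6.39-fold lower level. Without any 1 sample the value ran from -3.09 (without liver 1) to -2.50 (without liver 3), and the adjusted p reached 0.00285 at most.

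Cyp7b1 is known to be higher in male than in female mouse liver, so other sex-biased genes are given beside it. Of 8 male-biased genes, 4 were lower in tumors and none higher, Cyp2u1 (log2 fold change -2.01, SE 0.34, adjusted p = 0.000279), Cyp2d9 (-1.79, SE 0.44, adjusted p = 0.00611), Hsd3b5 and Slco1a1. The count was 2 without liver 3, 4, 5 or 6, 6 without liver 1 and tumor 2, 5 in E19 samples alone and 0 by limma in E20 samples alone (2 at an unadjusted p under 0.05). Mup20, also male-biased, did not pass the test (1.15, SE 0.86, adjusted p = 0.399). Of 3 female-biased genes tested, Cyp2a4 was higher, at 24.2 to 64.6 scaled TPM in livers and 252 to 1231 in tumors. In liver 1, the liver lowest in Cyp7b1, Mup20 was at 18.2 against 987 to 6668 in the other livers, and the female-biased Cyp2b9 was at 254 against 0.938 to 35.6. Per the study's methods the mice were male, and Xist was at 0 and the Y-linked genes Ddx3y and Eif2s3y were above 0 in all 18 samples. The part of these genes in the Cyp7b1 result was not tested.

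Amacr (chr15:10981756-10996624), the peroxisomal racemase, did not pass the test. Livers lay at 30.9, 42.6 and 58.9 scaled TPM and tumors at 15.6, 30.9 and 78.8 (lowest, median and highest), so tumors reached both below and above the livers. Tumor 10 alone lay above every liver, and 6 tumors lay below every liver. Its log2 fold change was -0.46 (SE 0.25, adjusted p = 0.233), and -0.58 without tumor 10. With the tag as a covariate it passed, at -0.62 (adjusted p = 0.0451).

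Slc27a5 (chr7:12988346-12998192), the bile acyl-CoA synthetase, was the most abundant of the 9 in both groups and was lower in tumors. Liver 1 held 129.7 scaled TPM and the other 5 livers 260 to 321, while tumors held 82.9 at the lowest, 114 at the median and 221 at the highest (tumor 4). The 5 livers lay above every tumor, and 9 tumors lay below liver 1. Tumors had a log2 fold change of -1.08 (SE 0.21, adjusted p = 0.00108), a 2.12-fold lower level. It was between -1.27 and -1.01 without any 1 sample.

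Baat (chr4:49489416-49507915), which conjugates the finished acids, followed the same order of groups. Livers lay at 38.6, 70.6 and 99.9 scaled TPM (lowest, median and highest), and tumors at 10.4, 31.8 and 57.0. Liver 1 was the lowest liver, the other 5 lay above every tumor, and 9 tumors lay below every liver. The log2 fold change was -1.31 (SE 0.30, adjusted p = 0.0034), a 2.48-fold lower level, and lay between -1.47 and -1.20 without any 1 sample.

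No enzyme had every tumor below every liver, a pattern that 0.856% of all genes tested showed. Liver 1 was the lowest liver in each of Cyp7b1, Cyp8b1, Cyp27a1, Baat, Slc27a5 and Akr1d1, and the highest in Cyp7a1. Without liver 1, 5 enzymes remained lower, Cyp7b1, Cyp27a1, Baat, Slc27a5 and Akr1d1. Without liver 1 and tumor 2 all 6 passed, as they did when tumor 10 was left out too. The count was 4 without liver 2, 4, 5 or 6 or tumor 5. Cyp7b1, Cyp27a1, Baat and Slc27a5 passed in each of the 18 fits that left out 1 sample.

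Of the samples that stood apart, liver 1 and tumor 2 carried the tag E20 and tumor 10 the tag E19. Genes above 0 numbered 11508 to 12394 in E19 samples. In E20 samples they numbered 12584 to 13819, but 8718 in tumor 2. The part of this in the results by tag was not tested. Within tags, the 6 enzymes were lower in tumors in both E19 and E20 samples. In mean log2 level, Cyp7b1 differed by -3.05 and -2.51 (E19 and E20), Cyp27a1 by -2.0 and -1.21, Baat by -1.38 and -1.46, Slc27a5 by -1.30 and -1.03, Akr1d1 by -1.47 and -0.68, and Hsd3b7 by -1.08 and -0.65. In E19 samples alone 4 of them passed the test, where 1395 of 10382 genes were called in all. In E20 samples alone 0 passed by limma (5 enzymes were lower at an unadjusted p under 0.05). Baat came nearest there at an adjusted p of 0.0639, and 406 of 10312 genes were called in all. The share of all genes at an unadjusted p under 0.05 was not taken within tags. Counts at an unadjusted p within a tag, here and for other lists, are therefore a description. A test of the difference between tags called 0 of 11452 genes by limma (unadjusted p-values were under 0.05 in 325). Among the enzymes, Cyp8b1 had the lowest unadjusted p in that test, 0.164 (adjusted p = 0.954). With 2 livers in E19, this does not show that the tumor-liver differences were the same in both tags.

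**Figure D2:**
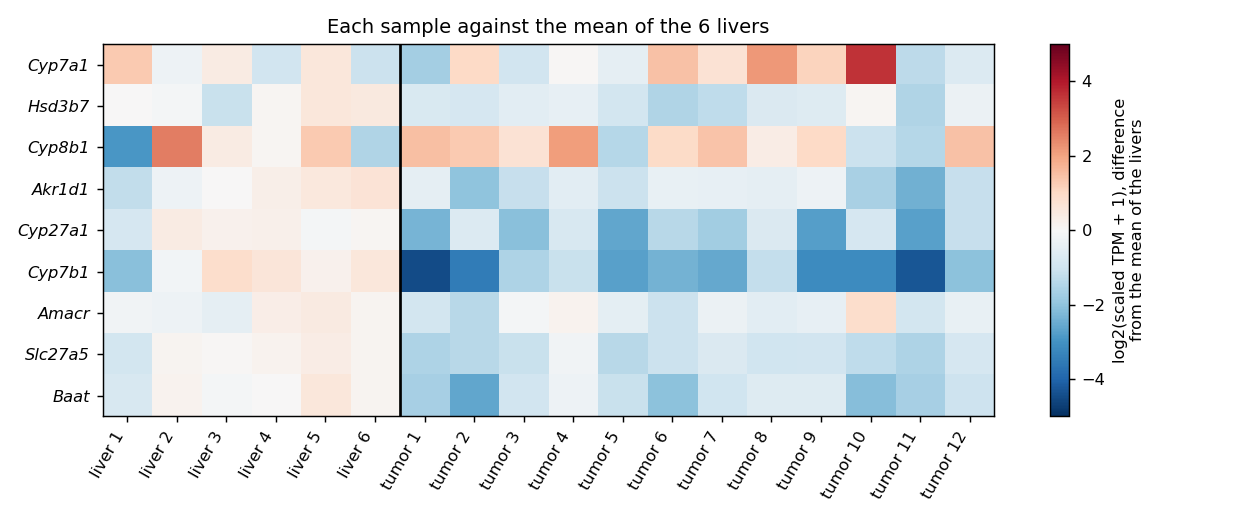
Difference of each sample's log2(scaled TPM + 1) from the mean of the 6 livers, for 9 enzymes (rows, in the order of their steps) in livers 1 to 6 and tumors 1 to 12 (columns); red is higher and blue lower. Cyp7b1, Cyp27a1, Baat, Slc27a5 and Akr1d1 are blue in every tumor, some only faintly, Cyp7a1 and Cyp8b1 take both colors, and tumor 10 stands out in Cyp7a1.

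Tumors differed in how many of the enzymes were low. Of the 6 enzymes lower in tumors, tumor 11 lay below every liver in 6 and tumor 6 in 5, whereas tumor 8 did so in 1 and tumor 4 in 0. These 6 were picked by their level in the same samples. The share of all genes below every liver was not taken for each tumor. The counts are therefore a description and show nothing particular to the enzymes. The median difference over these 6 enzymes from the mean of the livers was -2.02 in tumor 11 and -0.48 in tumor 4, on the log2 scale. In liver 1 it was -0.89, lower than in tumors 4, 8 and 9. Tumor 12, from the same mouse as tumor 11, lay below every liver in 2 enzymes. The 2 tumors of this mouse held 7.74 and 65.3 scaled TPM of Cyp8b1, and 2.58 and 15.9 of Cyp7b1. Tumor 11 carried the tag E19 and tumor 12 the tag E20, and Siglece took 53.4% and 24.4% of their totals. A difference between these 2 tumors cannot be told apart from one between tags.

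The spread among tumors was largest for Cyp7a1. Its SD on the log2 scale was 1.56 over tumors and 0.93 over livers, against medians of 0.484 and 0.352 over all genes tested, and 0.76% of genes had an SD over tumors at least as large. Cyp8b1 had an SD of 1.95 over livers, a size that 0.271% of genes reached, and 1.22 over tumors. Of the 9 enzymes, 6 had the larger SD in tumors, as did 71.7% of all genes. A limma test of absolute deviations called the spread of 0 of the 9 enzymes different between groups (0.0262% of all genes were called). Cyp27a1, with an SD of 0.82 over tumors and 0.45 over livers, had the lowest unadjusted p (0.0212, adjusted p = 0.641) and was the 1 enzyme under 0.05. This does not show that the spreads were alike.

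The order of levels was compared within groups. In both, Slc27a5 came first, Cyp27a1 second, Hsd3b7 next and Cyp7a1 last by mean scaled TPM. Cyp7b1 was 4th of 9 in livers and 8th in tumors, and Cyp8b1 was 8th in livers and 4th in tumors. Neighbors in this order mostly overlapped: mean ± SD intervals met in 7 of 8 neighboring pairs in livers, all but Cyp27a1 and Hsd3b7, and in 8 of 8 in tumors.

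The order of 2 enzymes within a sample does not depend on scaling, and here Cyp8b1 and Cyp7b1 changed order. The log2 ratios below were taken after adding 1 to each deposited value, so they do depend on the unit of a sample. The added 1 weighs most on low values, such as Cyp7b1 in tumor 2, deposited as 1. Deposited Cyp8b1 was above Cyp7b1 in 1 of 6 livers and in 11 of 12 tumors. The median log2 ratio of Cyp8b1 to Cyp7b1 was -2.03 in livers (-3.66 to 1.14) and 1.69 in tumors (-0.24 to 4.54). Cyp7a1 was above Cyp7b1 in 0 of 6 livers and in 4 of 12 tumors, with median log2 ratios of -3.93 (-5.39 to -0.21) and -0.45 (-3.06 to 3.17). The ranges overlapped between groups, and these pairs were picked with the levels known, so the counts are a description. Cyp27a1 stayed above both Cyp7b1 and Cyp7a1 in all 18 samples.

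**Figure D3:**
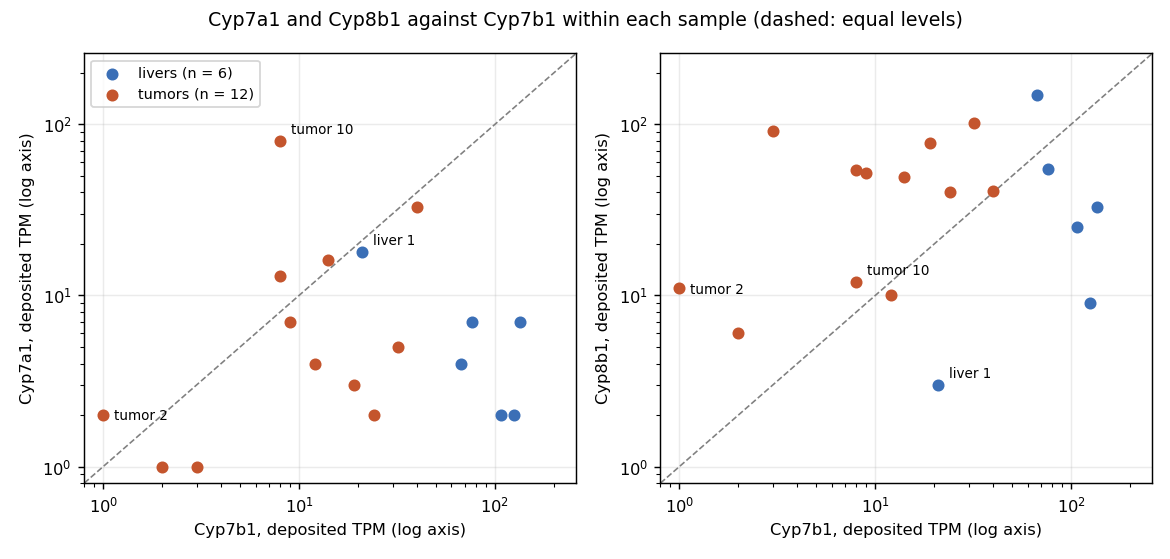
Deposited TPM of Cyp7a1 (left) and Cyp8b1 (right) against Cyp7b1 in each of 6 livers (blue) and 12 tumors (orange), on log axes, with a dashed line at equal levels. In the right panel 11 of 12 tumors lie above the line and 5 of 6 livers below it.

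Whether the enzymes moved together among tumors was asked over 11 mice, with tumors 11 and 12 averaged. Of 36 pairs, 27 had a positive Pearson's r, with a median of 0.213. None passed after adjustment over 36 pairs, by r or by Spearman's rho (100000 permutations, two-sided). The highest r was between Hsd3b7 and Amacr, at 0.728 (permutation p = 0.014, adjusted p = 0.219; rho 0.655, permutation p = 0.0332, adjusted p = 0.399), and it was 0.334 without the 2 mice farthest from the median of Hsd3b7, so it rests on those samples. Cyp7b1 and Slc27a5 came next, with an r of 0.692 (permutation p = 0.0157, adjusted p = 0.219) and a rho of 0.682 (permutation p = 0.0254, adjusted p = 0.399). Their r was 0.343 without the 2 mice farthest from the median of Cyp7b1. Slc27a5 and Baat had an r of 0.677 (permutation p = 0.0183, adjusted p = 0.219) and a rho of 0.709 (permutation p = 0.0181, adjusted p = 0.399). Their r was 0.674 without the 2 mice farthest from the median of Baat. Cyp7a1 and Cyp7b1, which add the same hydroxyl group in different routes, had an r of 0.185 (permutation p = 0.586, adjusted p = 0.781). Their rho was 0.291 (permutation p = 0.386, adjusted p = 0.817), and r was 0.0806 without the 2 mice farthest from the median of Cyp7a1.

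The genes most like each enzyme were ranked by Spearman's rho over the 12 tumors among 5705 genes, as a description. For Amacr the nearest was Phyh (0.944), another peroxisomal enzyme, of phytanic acid breakdown. For Baat it was Mdh1 (0.965), the cytosolic malate dehydrogenase, and for Slc27a5 it was Ahcyl (0.916), followed by the peroxisomal oxidase Pipox (0.909). Pipox also stood second for Cyp7b1 (0.860), after Ptprg (0.867). For Cyp7a1 it was the aryl hydrocarbon receptor Ahr (0.909), for Cyp8b1 Slc25a25 (0.839), for Cyp27a1 Otud5 (0.923), for Hsd3b7 Zfp444 (0.902), and for Akr1d1 B4galt5 and Sys1 (both 0.839).

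The rest of the pathway was read from lists. Of 15 other genes of bile acid synthesis tested, 4 were lower and 1 was higher in tumors. Por, the reductase that hands electrons to microsomal cytochromes P450 such as Cyp7a1, Cyp7b1 and Cyp8b1, fell from 189 to 403 scaled TPM in livers to 53.1 to 216 in tumors (log2 fold change -1.59, SE 0.29, adjusted p = 0.000638). Slc27a2, which activates bile acid precursors in peroxisomes, was lower, at -0.73 (SE 0.20, adjusted p = 0.0118). Fdx1, the electron donor of mitochondrial Cyp27a1, and the peroxisomal Hsd17b4 were lower, at -0.77 (adjusted p = 0.0492) and -0.58 (adjusted p = 0.0345), and passed in 4 and 11 of the 18 fits that left out 1 sample. Without liver 3, 4, 5 or 6 or tumor 1 or 3, 2 genes were lower, as in E19 samples alone, and 1 was lower in E20 samples alone. Cyp39a1, an oxysterol hydroxylase, was higher, at 0.99 (SE 0.21, adjusted p = 0.00222), at 7.36 to 15.7 in livers and 13.2 to 43.9 in tumors.

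Of 14 genes tested from a list for bile acid transport, 7 were lower in tumors and 0 higher. The list also held Abcb4, Abcg5, Abcg8 and Fabp1, which are not bile acid carriers, and Abcg8 was among the 7 (adjusted p = 0.0161). The uptake carrier Slc10a1 lay at 165 to 214 scaled TPM in livers and 40.0 to 132 in tumors, with no overlap (log2 fold change -1.38, SE 0.24, adjusted p = 0.000384). The export pump Abcb11 (BSEP) lay at 48.4 to 96.1 and 19.7 to 46.6, again with no overlap (-1.11, SE 0.19, adjusted p = 0.000254). The organic anion carriers Slco1a4 (-2.32, SE 0.36, adjusted p = 0.000105) and Slco1b2 (-1.55, SE 0.41, adjusted p = 0.0113) were lower too, but tumor 10 held more Slco1b2 (249) than any liver. Slco1a1 was lower, at -2.30 (adjusted p = 0.0401) and passed in 6 of 18 fits that left out 1 sample. Without any 1 sample, 5 to 8 genes of this list were lower, with 5 in E19 and 4 in E20 samples alone.

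Of 20 regulators tested, 7 were lower and 1 was higher. Nr1i3 (CAR) was lower, at a log2 fold change of -2.0 (SE 0.50, adjusted p = 0.00666), and Mafg, a repressor of bile acid synthesis genes, at -1.36 (SE 0.22, adjusted p = 0.000207). Nr1d1 was at -1.32 (SE 0.40, adjusted p = 0.0247) and Nr1i2 (PXR) at -0.96 (SE 0.25, adjusted p = 0.0102). Levels of Nr1d1 were low, at 1.05 to 18.2 scaled TPM in livers, highest in liver 1, and 0 to 3.58 in tumors. Its call held in 16 of 18 fits that left out 1 sample. The bile acid receptor Nr1h4 was lower, at -0.75 (SE 0.24, adjusted p = 0.0345) and its target Nr0b2 at -0.78 (SE 0.24, adjusted p = 0.0274), and these calls held in 12 and 16 of 18 fits that left out 1 sample. Fgf21, a hormone of the liver, was higher by 2.40 (SE 0.42, adjusted p = 0.000344), at 0 to 6.55 scaled TPM in livers and 5.87 to 42.6 in tumors. Fgf15 was listed at 0 in every sample. The count of lower regulators was 4 without liver 2, 3 or 6, and also without scaling between samples. It was 3 in E19 samples alone and 0 by limma in E20 samples alone (6 at an unadjusted p under 0.05), where none was higher either (1 unadjusted).

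Genes of cholesterol supply, which provides the substrate, went the other way. Of 12 tested, 9 were higher and 0 lower in tumors, among them Sqle (2.85, SE 0.40, adjusted p = 3.42e-05), Cyp51 (1.88, SE 0.29, adjusted p = 0.00012), Hmgcs1 (1.76, SE 0.40, adjusted p = 0.00332) and Lss (1.63, SE 0.35, adjusted p = 0.0023). Livers held 6.63 to 103.5 scaled TPM of Sqle and tumors 65.4 to 240, and the highest liver was liver 1. Without scaling between samples 4 were higher, in E19 samples alone 7 were, and in E20 samples alone 0 passed by limma (8 were higher at an unadjusted p under 0.05). The plot of fold changes sets the enzymes beside these lists.

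**Figure D4:**
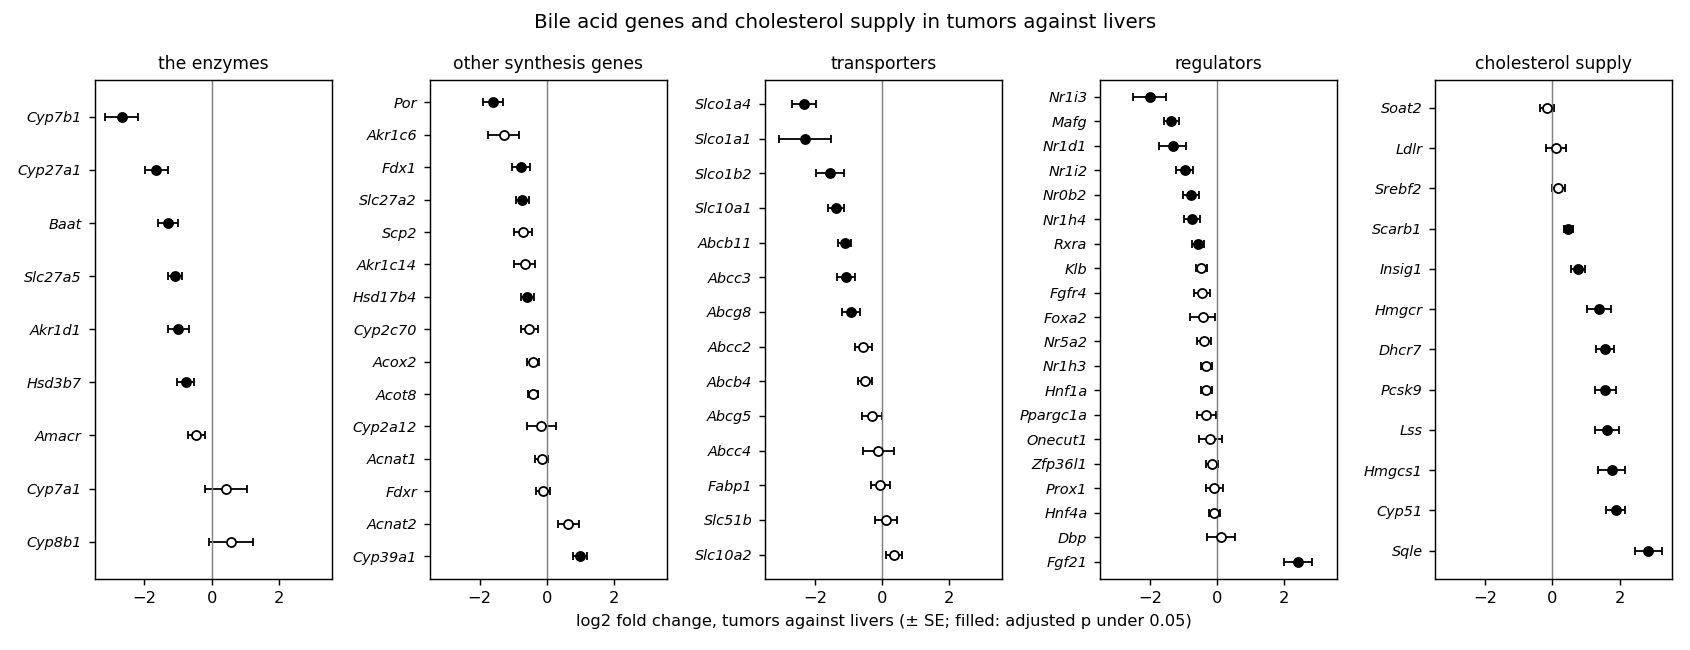
Log2 fold changes, tumors against livers, with bars of ± 1 SE, for the 9 enzymes, 15 other synthesis genes, 14 genes of the transport list, 20 regulators and 12 genes of cholesterol supply. Filled points have an adjusted p under 0.05 by limma. Filled points lie left of 0 for 6 enzymes and right of 0 for 9 genes of cholesterol supply.

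Markers of hepatocytes and of other cells are given beside the enzymes, and their part in the results was not tested. Of 7 hepatocyte markers, 2 were higher (Ahsg and Apoa1) and 0 lower in tumors, and Alb did not pass (log2 fold change 0.59, SE 0.23, adjusted p = 0.0747). Their summed level was 40832 to 52891 scaled TPM in livers and 39123 to 85776 in tumors. Of 8 pericentral genes tested, 3 were lower (Cyp2e1, Cyp1a2 and Oat), and 7 without tumor 10. Of 9 periportal genes, 3 were lower (Cyp2f2, Ass1 and Hal), 5 without tumor 10 and 1 without liver 2. Summed pericentral levels were 1572 to 3525 in livers and 119 to 9176 in tumors, and summed periportal levels were 3715 to 5291 and 29.5 to 3499. Of the cholangiocyte markers, Spp1 was higher, while Krt19, Krt7 and Epcam were under 2 scaled TPM and Cftr was at 0 in all samples. Of 7 endothelial markers 2 were higher and 0 lower, of 7 stellate and fibroblast markers 2 were higher and 3 lower, of 5 macrophage markers tested 1 was lower, and the 1 lymphocyte marker tested (Ptprc) did not pass. The macrophage count was 0 without liver 2, 3, 4, 5 or 6 or tumor 1, 9 or 11 and 3 without tumor 2, and the count of lower stellate and fibroblast markers was 1 without liver 6. Summed macrophage levels were 33.7 to 79.9 in livers and 9.03 to 57.2 in tumors, and summed lymphocyte levels 1.96 to 4.97 and 0.984 to 14.7. All 3 proliferation markers tested, Mki67, Top2a and Cdk1, were higher in tumors. In E19 samples alone 0 pericentral and 0 periportal genes were lower by limma (2 and 0 at an unadjusted p under 0.05), and in E20 samples alone 0 hepatocyte markers were higher (2 unadjusted) and no proliferation marker was tested.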

How the data were processed

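Per the study's methods, the authors sequenced poly-A RNA from both ends, quantified genes on GRCm38 and expressed them as TPM. The deposited numbers are whole (a score), called raw counts by the study and read here as rounded TPM. They keep no read counts, so no counting error could be given. Scaling factors came from trimmed M values (30% of M and 5% of A trimmed). Genes reaching 1 scaled TPM in 6 or more samples were tested as log2(value + 1) with limma 3.58.1 (trended prior variance, R 4.3.3). Other values were computed with Python 3.11.15. The fit was tested on simulated data. Groups came from the labels, and ages from the study's table. In 2 tumors the mouse number differed between these, and tumor number and tag matched them. The members and lists were chosen with earlier results of these data known. Named genes were all 9 enzymes, up to 4 called genes per list and direction, genes a result turned on, and the 2 nearest genes per enzyme (mean log2 value over tumors of at least 3). Siglece, Mup20, Cyp2b9, Sds, Glul and the genes of the other observations were chosen after their values were seen. Replicates were separate mice but for tumors 11 and 12. Alternatives covered scaling, filters, pseudocounts, tag, weights and samples left out. Some results are not reported here.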

Additional observations from a re-analysis of the deposited data

Results flagged for a closer look

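Among the 6 livers, 47 genes named above or fixed beside them were searched for a liver whose gap to its nearest neighbor, divided by the range of the livers on the log2 scale, exceeded Dixon's 95% critical value for 6 samples. Chance flags about 1 in 20 such groups, but the count cannot be set against that: genes of 1 liver do not vary independently, and some, such as Slco1a1, Hmgcs1, Mup20 and Glul, were named with a sample that stood apart in view. The search found 11, of which 10 were liver 1. Liver 1 was the lowest liver in Cyp7b1 (gap of 0.662 of the range) and Slc27a5 (0.767) among the enzymes. It was also the lowest in Slc27a2 (0.65), Slco1a1 (0.782), Nr1i2 (0.769), Cyp1a2 (0.70), Cyp2f2 (0.857) and Mup20 (0.674), and the highest in Hmgcs1 (0.853) and Lss (0.664). Liver 2 was the lowest in Glul (0.675). The cause was not tested. Without liver 1 the log2 fold changes were -3.09 for Cyp7b1 and -1.27 for Slc27a5.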

How the results depend on the processing

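Cyp7b1, Cyp27a1, Baat and Slc27a5 kept their direction and call in all alternatives but E20 samples alone, which held liver 1 and tumor 2. Adjusted p-values by limma were 0.0639 to 0.112 there, with log2 fold changes of -2.50, -1.20, -1.44 and -1.02. In these samples 0 enzymes and 406 genes were called, and Hsd3b7 (-0.64) and Akr1d1 (-0.67) missed the threshold as well. Hsd3b7 and Akr1d1 also missed it without scaling (-0.98 and -1.17, with 1341 genes called) and in E19 samples alone (-1.11 and -1.50, with 1395 called). Amacr passed with the tag as a covariate (-0.62). Replicate numbers did not pair livers with tumors, since livers and tumors came from separate mice. Same-numbered samples correlated at -0.10 to 0.43, over 0.1 in 3 of 6 pairs, and 3 livers correlated best with their own number. These correlations alone could not exclude a pairing. With the replicate block, on livers 1 to 6 and tumors 1 to 6, 1357 genes were called against 1217 without the block, Hsd3b7 (-0.83) and Akr1d1 (-0.93) missed the threshold in both, and Cyp7a1 turned to -0.094 in both. All-gene counts were 2168 as reported, 4554 with array weights and, chosen after seeing the data, 3669 without liver 1 and tumor 2 and 3706 without tumor 10 as well. Cyp8b1 turned to -0.55 in E19 samples, -0.071 without liver 1 and tumor 2, and -0.0018 without liver 1. Of named genes that are not enzymes, Hnf4a turned to 0.031 with the tag, 0.079 in E20 samples and 0.012 without liver 3 (lowest -0.20, without liver 5), and Mup20 to -0.16 in E19 samples. Leaving out each sample in turn gave 1614 (without liver 2) to 3179 (without tumor 2) genes and 4 to 6 enzymes. Log2 fold changes then ran from -0.99 to -0.66 for Hsd3b7, -1.24 to -0.85 for Akr1d1 and -0.002 to 1.09 for Cyp8b1. Spread calls stayed at 0 of 9 enzymes in the alternatives run. Without scaling the median of all genes moved to -0.18. The cause of these changes was not tested. Few livers and values rounded to whole TPM limit what can be seen, above all for Cyp7a1.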

Other observations

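Other enzymes that shape the bile acid pool of mice were not uniform in tumors. Cyp2c70, which makes muricholic acids, lay at 117 to 384 scaled TPM in livers and 88.5 to 251 in tumors (log2 fold change -0.53, SE 0.25, adjusted p = 0.161 by limma). Cyp2a12, which hydroxylates secondary bile acids again, was at 15.6 in tumor 10 and at 166 to 351 in the other tumors, against 176 to 262 in livers. Akr1c6 was at 603 in tumor 10 and 26.0 to 242 in the other tumors, against 195 to 471 in livers (-1.29, SE 0.46, adjusted p = 0.0561). Tumor 10 thus held the highest Cyp7a1, Amacr and Akr1c6 and the lowest Cyp2a12 of all tumors.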
